A study of Mus musculus with 4 samples.

Results

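The 6 genes described here belong to the renin-angiotensin and endothelin systems and were taken by symbol from the 12408 genes listed for each library. They are Agt, Ace and Agtr1a of the renin-angiotensin system and Ece1, Ednra and Ednrb of the endothelin system, and all 6 were found. Expression was measured by RNA sequencing of whole hearts from 4 C57BL/6 mice, each 3 months old and each giving 1 library. Both genotypes carried WW45 flanked by loxP sites (flox/flox), and the mice named cKO also carried Cre under the alpha-MHC promoter, which is active in cardiomyocytes. WW45 is an older name of Sav1, a scaffold protein of the Hippo kinase pathway. The libraries are labelled cKO TAC, CT TAC, cKO baseline and CT baseline, where TAC stands for 4 weeks of transverse aortic constriction, a surgical banding that raises the pressure against which the left ventricle pumps. No library is labelled as sham-operated or as Cre without the floxed gene, so operation and load, or Cre and deletion, cannot be told apart.

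Angiotensinogen is cleaved by renin and then by angiotensin-converting enzyme to angiotensin II, which acts on the AT1 receptor to raise vascular tone and, in the heart, is known for promoting hypertrophy and fibrosis. Endothelin peptides are released from their precursors by endothelin-converting enzyme and act on the ETA receptor of smooth muscle and cardiomyocytes and on the ETB receptor of endothelium. Both receptor types signal largely through Gq proteins and phospholipase C.

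Since each group is 1 mouse, ratios between 2 libraries carry no p-value and could not be checked in a replicate. Recovered reads numbered 1772153 for cKO TAC and 2064655 for CT TAC, and at baseline 1587840 for cKO and 2796547 for CT. Levels are given as CPM, reads scaled to a common library size, with 95% counting intervals, which leave out the variation between mice. Sav1 had 46.2 CPM in the library labelled cKO TAC and 35.4 CPM in CT TAC, and 39.8 CPM in cKO baseline and 49.3 CPM in CT baseline. Under TAC the gene to be deleted was thus no lower in cKO than in CT, against the label. Reads summed over a gene that is deleted only in cardiomyocytes check the labels weakly, also at baseline, where Sav1 was only somewhat lower in cKO. Every direction drawn below rests on the labels, above all for the library labelled cKO TAC. Cardiomyocyte markers were all measured (8 of 8), Myh6 from 33239 to 57903 CPM.

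The sequences just upstream of the start sites of Agt, Ace and Ednra are shown because these genes had the largest differences between TAC and baseline in at least 1 genotype. They are from RefSeq (GRCm38.p6, the assembly of mm10), which held promoter sequences for 5 of the 6 genes. Each is 250 bases on the gene's strand, ends at the base before the RefSeq start, and lies at chr8:124569707-124569956 (minus strand) for Agt, chr11:105967698-105967947 (plus strand) for the upstream of 2 Ace start sites, and chr8:77724453-77724702 (minus strand) for Ednra. Capitals mark matches on either strand to any of 6 motifs. The TATA box was searched as TATAAA and the GC box, which Sp1 factors bind, as GGGCGG. The MCAT element, bound by TEAD factors, was searched as CATTCC and the AP-1 site as TGANTCA. The E-box, bound by factors with a basic helix-loop-helix, was searched as CANNTG. The STAT site was searched as TTCNNNGAA, and matches to different motifs did not overlap in the sequences shown.
Agt: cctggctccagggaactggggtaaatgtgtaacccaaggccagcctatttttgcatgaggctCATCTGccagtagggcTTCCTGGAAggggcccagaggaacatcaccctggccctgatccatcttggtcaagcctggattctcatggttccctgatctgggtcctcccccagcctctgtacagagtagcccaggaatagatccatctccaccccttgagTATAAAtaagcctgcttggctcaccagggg
Ace: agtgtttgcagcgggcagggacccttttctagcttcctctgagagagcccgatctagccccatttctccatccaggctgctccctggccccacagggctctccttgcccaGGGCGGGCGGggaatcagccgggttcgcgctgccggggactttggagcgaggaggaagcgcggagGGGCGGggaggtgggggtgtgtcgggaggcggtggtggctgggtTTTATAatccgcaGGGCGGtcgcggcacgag
Ednra: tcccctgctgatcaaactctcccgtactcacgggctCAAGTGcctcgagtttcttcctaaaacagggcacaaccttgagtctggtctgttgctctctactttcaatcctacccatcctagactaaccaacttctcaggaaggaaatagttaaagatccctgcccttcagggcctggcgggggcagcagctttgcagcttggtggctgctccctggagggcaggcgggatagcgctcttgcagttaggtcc

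The Agt window had a TATA box at position -30 from the start, and the Ace window had the same letters on the other strand at -31, whereas the Ednra window had none. Of 32536 windows of this length, 12.3% held a TATA box. Ace had 4 GC boxes, of which 2 overlap, and 33.0% of all windows held at least 1. Agt had a STAT match at -172, found in 7.04% of windows, and E-boxes, present in 66.2% of windows, were matched in Agt and Ednra. No window of the 3 genes held an MCAT (12.6% of all windows) or AP-1 element (6.73%). These matches describe letters and show no binding.

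Agt encodes angiotensinogen, the precursor of all angiotensin peptides, and lies at chr8:124556534-124569706 on the minus strand. Its level was 44.6 CPM (82 reads, interval 35.5 to 55.4) in the library labelled cKO TAC, 39.9 CPM (80 reads, 31.7 to 49.7) in CT TAC, 18.4 CPM (30 reads, 12.4 to 26.2) in cKO baseline and 20.4 CPM (55 reads, 15.4 to 26.5) in CT baseline. Both TAC libraries lay above both baseline libraries with intervals that did not overlap, and within each state the genotypes did not differ beyond counting error. TAC over baseline, the ratio of CPM was 2.43 (1.58 to 3.83) in cKO and 1.96 (1.37 to 2.81) in CT. The 2 ratios differed by 0.31 on the log2 scale (cKO minus CT), with an interval from -0.48 to 1.09 that includes 0. In whole hearts, fewer cells of a type and less RNA per cell cannot be told apart. Fibroblast markers (8 of 8 measured, none at 0 reads) summed to 4039 CPM in the library labelled cKO TAC and 3145 CPM in CT TAC, against 1822 CPM in cKO baseline and 1323 CPM in CT baseline. The sum was thus higher in both TAC libraries, as Agt was. It stayed so without Dcn, its most abundant marker, left out after the values were seen. It was then 1120 CPM in the library labelled cKO TAC and 861 CPM in CT TAC, against 430 CPM in cKO baseline and 251 CPM in CT baseline. Among single markers, Dpt and Ddr2 were not higher in both TAC libraries. The part of fibroblasts in the result was not tested.

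Ace encodes angiotensin-converting enzyme, a peptidase of the endothelial surface that forms angiotensin II and degrades bradykinin. It lies at chr11:105967945-105989964 on the plus strand. Ace reached 251 CPM (462 reads, interval 229 to 275) in the library labelled cKO TAC and 241 CPM (482 reads, 220 to 263) in CT TAC, against 132 CPM (215 reads, 115 to 150.3) in cKO baseline and 78.0 CPM (210 reads, 67.7 to 89.1) in CT baseline. The TAC libraries were highest and did not differ from each other beyond counting error, the cKO baseline library was intermediate, and CT baseline was lowest. Ace was 1.91-fold higher (1.62 to 2.26) in cKO TAC than in cKO baseline and 3.09-fold higher (2.62 to 3.65) in CT TAC than in CT baseline. The TAC log2 ratio was lower in cKO than in CT by 0.69 units (difference -0.69, interval -1.02 to -0.36). At baseline the cKO library was 1.69-fold above CT (1.39 to 2.05), and under TAC the ratio of cKO to CT was 1.05 (0.917 to 1.19). Endothelial markers (10 of 10 measured, none at 0) summed to 1855 CPM in the library labelled cKO TAC and 1919 CPM in CT TAC, against 1836 CPM in cKO baseline and 2155 CPM in CT baseline. The endothelial sum was thus slightly higher with TAC in cKO and lower with TAC in CT. The fibroblast sum had the same order of libraries as Ace, and the part of either cell type in the result was not tested. Ace had parts of reads in 2 libraries, and 295 exonic bases (5.58%) overlap the antisense gene Gm11651. The use of strand is not given in the sources used here, so reads there cannot be told apart.

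Agtr1a encodes the AT1a receptor, through which angiotensin II acts in mouse tissues, and lies at chr13:30336441-30382867. Its levels were 41.9 CPM (77 reads) in the library labelled cKO TAC, 46.4 CPM (93 reads) in CT TAC, 48.9 CPM (80 reads) in cKO baseline and 48.6 CPM (131 reads) in CT baseline. All 4 intervals overlapped, over a range from 33.0 to 60.9 CPM. TAC over baseline, the ratio was 0.856 (0.618 to 1.19) in cKO and 0.956 (0.725 to 1.26) in CT. The close paralog Agtr1b, which shares much of the coding sequence, was not among the 12408 genes listed. The assignment of reads between the copies is therefore uncertain, although the Agtr1a reads were whole.

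**Figure D1:**
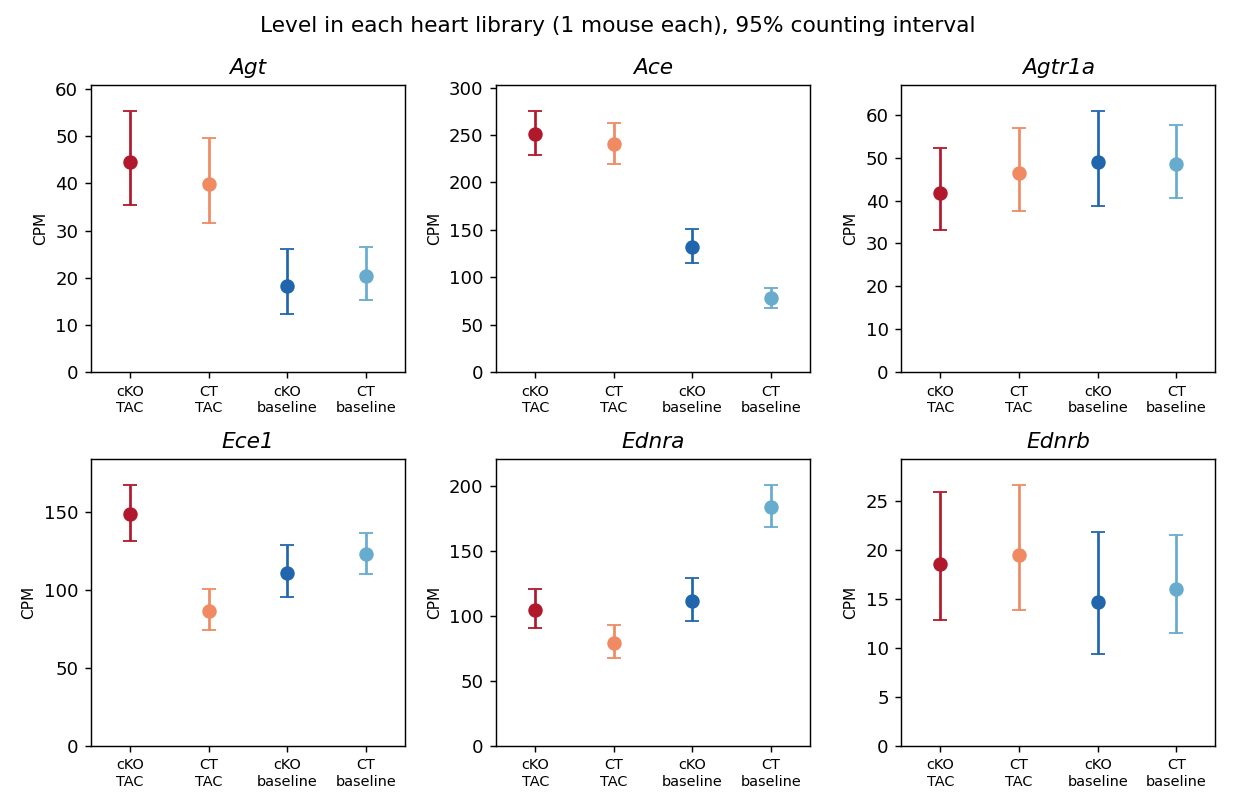
Level of each gene in CPM (vertical axis, from 0) in the 4 heart libraries, 1 mouse each, with bars for the 95% counting interval. Agt and Ace stand higher in both TAC libraries than in both baseline libraries, Ednra is highest in CT baseline at 184 CPM, and Agtr1a and Ednrb have overlapping intervals in all 4.

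Ece1 encodes endothelin-converting enzyme 1, the membrane peptidase that releases active endothelin, and lies at chr4:137862237-137965229. The library labelled cKO TAC had 149 CPM (274 reads, interval 132 to 168), CT TAC 86.9 CPM (174 reads, 74.4 to 101), cKO baseline 111 CPM (182 reads, 95.7 to 129) and CT baseline 123 CPM (332 reads, 110.2 to 137). The TAC libraries formed the 2 ends of the order, with the baseline libraries between them and not different from each other (ratio of cKO to CT 0.905, 0.751 to 1.09). TAC over baseline, the ratio was 1.34 (1.11 to 1.62) in cKO and 0.706 (0.584 to 0.850) in CT, so the direction was opposite in the genotypes. The difference of the log2 ratios was 0.92 (0.54 to 1.30). Under TAC the library labelled cKO was 1.72-fold above CT (1.41 to 2.09).

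Ednra encodes the ETA receptor, which mediates constriction of smooth muscle by endothelin, and lies at chr8:77663031-77724464. Its levels were 105 CPM (193 reads, interval 90.7 to 121) in the library labelled cKO TAC, 79.4 CPM (159 reads, 67.5 to 92.7) in CT TAC, 112 CPM (183 reads, 96.3 to 129) in cKO baseline and 184 CPM (497 reads, 168 to 201) in CT baseline. CT baseline stood above the 3 others, CT TAC was lowest, and the 2 cKO libraries lay between them and did not differ beyond counting error. The ratio of TAC to baseline was 0.938 (0.762 to 1.15) in cKO and 0.431 (0.358 to 0.516) in CT, a difference of 1.12 log2 units (0.73 to 1.51). The ratio of cKO to CT was 1.32 (1.07 to 1.64) under TAC and 0.608 (0.510 to 0.721) at baseline. Mural markers (9 of 9 measured, none at 0) summed to 680 CPM in the library labelled cKO TAC and 674 CPM in CT TAC, against 824 CPM in cKO baseline and 937 CPM in CT baseline. The sum had the same order of libraries as Ednra, but did not keep that order without its most abundant marker, Abcc9. Without Abcc9, left out after the values were seen, the other 8 summed to 472 CPM in the library labelled cKO TAC and 452 CPM in CT TAC, against 463 CPM in cKO baseline and 484 CPM in CT baseline. Abcc9, Rgs5 and Myh11 were lower in both TAC libraries than in both baseline libraries. Pdgfrb, Kcnj8, Cnn1 and Higd1b were higher in both, Cnn1 and Higd1b with at most 15 reads in any library. Cspg4 and Notch3 had no such split. The median log2 ratio of TAC to baseline over the 9 markers was 0.26 in cKO and 0.37 in CT, and Ednra was at -0.09 and -1.21. Cardiomyocyte markers summed to 86628 CPM in the library labelled cKO TAC and 113001 CPM in CT TAC, against 97985 CPM in cKO baseline and 113667 CPM in CT baseline. The part of mural cells or cardiomyocytes in the result was not tested. A processed transcript on the other strand, 4933431K23Rik, overlaps 91 exonic bases (1.66%) of Ednra.

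Ednrb encodes the ETB receptor, which clears endothelin and stimulates release of nitric oxide from endothelium, and lies at chr14:103814625-103844402. It had 18.5 CPM (34 reads) in the library labelled cKO TAC, 19.5 CPM (39 reads) in CT TAC, 14.7 CPM (24 reads) in cKO baseline and 15.9 CPM (43 reads) in CT baseline. These counts are the lowest of the 6 genes, and all intervals overlapped, over a range from 9.41 to 26.6 CPM. The ratio of TAC to baseline was 1.26 (0.725 to 2.22) in cKO and 1.22 (0.771 to 1.93) in CT, so a 2-fold difference in cKO lay within the interval at this depth.

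**Figure D2:**
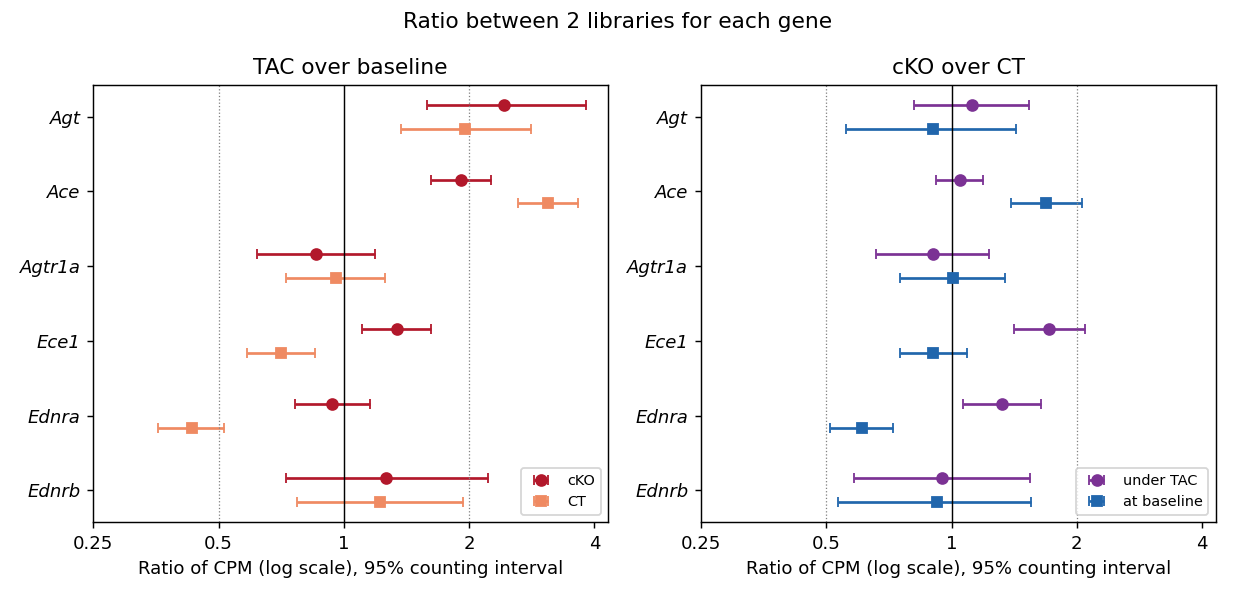
Ratio of CPM between 2 libraries for each gene on a log axis, with 95% counting intervals and dotted lines at 0.5 and 2. TAC over baseline is at left (cKO above CT) and cKO over CT at right (TAC above baseline). The intervals of Ece1 in the 2 genotypes lie on opposite sides of 1 at left, and those of Ednra in the 2 states at right.

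In CT, 2 of the 6 genes were at least 2-fold apart between TAC and baseline with an interval that excluded 1, Ace higher and Ednra lower. The same rule called 10.7% of all 12408 genes in this pair, 6.05% higher and 4.67% lower. The interval alone excluded 1 for 4 of 6 genes, against 31.6% of all genes. In cKO, 1 of 6 (Agt) passed the 2-fold rule, against 6.52% of all genes (3.69% higher and 2.83% lower), and 3 of 6 had an interval that excluded 1, against 22.1%. Ace missed the 2-fold rule in cKO and Agt missed it in CT, each by less than 0.1 log2 units, at 0.93 and 0.95. The median log2 ratio of the 6 genes was 0.37 in cKO and 0.11 in CT, and over all genes it was -0.00 and 0.01. For 3 of 6 genes (Ace, Ece1 and Ednra) the interval of the difference between the 2 TAC responses excluded 0, which held for 17.6% of all genes.

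Between the genotypes, 0 of 6 genes were at least 2-fold apart under TAC, where 5.02% of all genes were (2.93% higher and 2.09% lower, which is 364 and 259 genes, or 480 and 186 when scaled to total reads). At baseline it was also 0 of 6, against 5.07% of all genes (3.26% higher and 1.81% lower, which is 405 and 224 genes, or 492 and 172 when scaled to total reads). The interval excluded 1 for 2 of 6 under TAC (Ece1 and Ednra, both higher in the library labelled cKO; 20.7% of all genes) and for 2 of 6 at baseline (Ace higher in cKO and Ednra lower; 19.6%). The median log2 ratio of cKO to CT over the 6 genes was 0.11 under TAC and -0.13 at baseline, and over all genes 0.01 and 0.00. Each library enters 2 of the 4 comparisons, so a high or low value in CT baseline enters the TAC ratio of CT and the genotype ratio at baseline alike. Ednra had its highest value and Ace its lowest in that library.

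A model over all 4 libraries set 2 TAC mice against 2 baseline mice with a term for genotype. Ace rose with TAC by 1.28 on the log2 scale (SE 0.21, limma with Benjamini-Hochberg adjusted p = 0.0129), higher in both genotypes. It was the 1 gene of 6 that was called, against 1.82% of all genes (226 genes), and 71 genes had a smaller p. Agt was 1.11 higher (SE 0.26) and missed the threshold (limma adjusted p = 0.0644), and Ednra was at -0.65 (SE 0.25, limma adjusted p = 0.239). The differences for Ednrb, Ece1 and Agtr1a were 0.30, -0.04 and -0.14. In Ece1 the near-zero mean is that of ratios of opposite sign. Unadjusted p was under 0.05 for 3 of 6 genes and 16.2% of all genes. The Ace call was lost without the mean-variance trend (limma adjusted p = 0.339, 0 genes called in all) and without the genotype term (adjusted p = 0.118), and Agt was called (adjusted p = 0.0365) among genes with a mean CPM of at least 5.

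For genotype the same limma model called 0 of 6 genes, with 0 of 6 at an unadjusted p under 0.05, and 0.0242% of all genes (7.77% unadjusted). The largest difference was that of Ace, at 0.41 (SE 0.21, limma adjusted p = 0.692). Ece1 was at 0.32, Ednra at -0.16, Ednrb at -0.09, Agtr1a at -0.07 and Agt at 0.00. The model has 1 residual degree of freedom, and its spread is the difference between the genotype ratios of the 2 states, shared across genes. The opposite ratios of Ece1 and Ednra therefore enter it as spread. So do the unequal ratios of Ace, the gene called for TAC, at 0.75 at baseline and 0.06 under TAC on the log2 scale.

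Ratios of 2 genes within a library do not depend on how libraries are scaled, and here each count was divided by the gene's exonic length. That length is the union of all annotated exons, which may differ from the transcripts present in heart. Whether a ratio lies above or below 1 depends on it, and the intervals cover counting alone. Ligand precursor to receptor, Agt had 1.57 times (interval 1.14 to 2.17) the reads per kilobase of Agtr1a in the library labelled cKO TAC and 1.27 times (0.928 to 1.73) in CT TAC, against 0.552 (0.350 to 0.850) in cKO baseline and 0.619 (0.443 to 0.854) in CT baseline. Agt was thus below its receptor in both baseline libraries and above it in cKO TAC. For the 2 converting enzymes, Ace to Ece1, the ratio was 1.69 (1.45 to 1.97) in the library labelled cKO TAC, 2.78 (2.33 to 3.32) in CT TAC, 1.18 (0.968 to 1.45) in cKO baseline and 0.635 (0.531 to 0.756) in CT baseline. The order of the enzymes was reversed between CT TAC and CT baseline. Among the endothelin receptors, the ratio of Ednra to Ednrb was 4.42 (3.06 to 6.57) in the library labelled cKO TAC, 3.18 (2.23 to 4.63) in CT TAC, 5.94 (3.87 to 9.51) in cKO baseline and 9.00 (6.59 to 12.6) in CT baseline. Ednra exceeded Ednrb per kilobase in all 4 libraries, and the ratio was highest in CT baseline and lowest in CT TAC, with intervals that did not overlap.

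**Figure D3:**
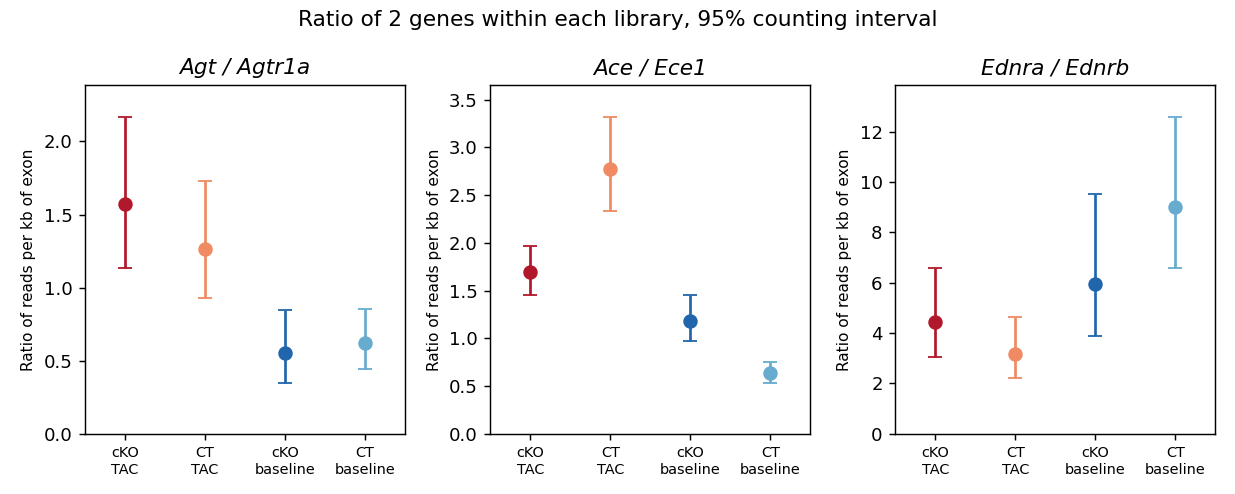
Ratio of reads per kilobase of exon between 2 genes within each library (vertical axis, from 0), with 95% counting intervals. Agt over Agtr1a and Ace over Ece1 are higher in the TAC libraries than in the baseline library of the same genotype, and Ednra over Ednrb is highest in CT baseline at 9.00 and lowest in CT TAC at 3.18.

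In limma, 4 of 8 fibroblast markers rose with TAC and none fell, and 1 of 9 mural markers fell and none rose. Over all genes 1.3% rose and 0.524% fell. The adventitial fibroblast marker Pi16 rose by 1.89 (SE 0.19, limma adjusted p = 0.000864). Abcc9, a potassium channel subunit of pericytes that cardiomyocytes also express, fell by 0.91 (SE 0.17, limma adjusted p = 0.0298). Other mural markers differed in sign without passing the threshold, among them Kcnj8 at 0.46, Pdgfrb at 0.41, Rgs5 at -0.43 and Myh11, with parts of reads, at -0.84, and the median of the 9 was 0.17. Of 10 endothelial markers none was called for TAC, with 3 at an unadjusted p under 0.05, against 16.2% of all genes. Mast cells, a source of chymase, had 3 of 6 markers measured, which summed to at most 7.99 CPM in a library, and Tpsb2 was at 0 reads in CT TAC.

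Of 23 further renin-angiotensin genes 15 were measured, while Ren1, Agtr2, Mas1 and 5 others were not among the 12408 genes listed. For TAC limma called 0 of 15, with 4 at an unadjusted p under 0.05, against 16.2% of all genes. In CT, TAC over baseline, Anpep, an aminopeptidase that trims angiotensin III, had 96 reads against 56 and was 2.31-fold higher (1.64 to 3.27). Prcp, which cleaves angiotensin II at its C-terminus, had 38 reads against 21 (2.44-fold, 1.39 to 4.37). Mme, the peptidase neprilysin, had 5 reads against 26 (ratio 0.259, 0.0777 to 0.685). These 3 were the only measured genes of the list past the 2-fold rule in CT, which 10.7% of all genes passed. In cKO none of the 15 passed between TAC and baseline, against 6.52% of all genes. The list median was 0.27 in cKO and 0.49 in CT. Between genotypes 0 of 15 passed under TAC (5.02% of all genes) and 1 at baseline (5.07%). That 1 was Mme, with 5 reads in cKO against 26 in CT (0.317, 0.0952 to 0.840). For genotype limma called 0 of 15 (0.0242% of all genes), and 0 of 15 had an unadjusted p under 0.05 (7.77% of all genes).

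Of 7 further endothelin genes 3 were measured. Edn1, the precursor of endothelin-1, had 7 reads in the library labelled cKO TAC, 9 in CT TAC and, at baseline, 2 in cKO and 5 in CT. Its limma difference for TAC was 1.21 (SE 0.56, adjusted p = 0.321), and Edn3 had at most 4 reads in any library. Ece2, a homologue of Ece1 whose reads were partly shared, passed the 2-fold rule in 1 pair, with 6.2 reads in the library labelled cKO TAC against 18 in CT TAC (ratio 0.375, 0.118 to 0.955). None of the 3 was called by limma for TAC (1.82% of all genes) or genotype (0.0242%). An unadjusted p under 0.05 was found for 1 (Ece2), for genotype, against 7.77% of all genes.

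In the kinin system, where Ace degrades bradykinin, 3 of 10 genes were measured and limma called none. None had an unadjusted p under 0.05 for TAC (16.2% of all genes) or genotype (7.77%). Cpm, a carboxypeptidase that acts on kinins, had 25 reads in the library labelled cKO TAC, 8 in CT TAC and, at baseline, 21 in cKO and 44 in CT. It passed in CT for TAC over baseline (ratio 0.245, 0.0996 to 0.526) and under TAC for cKO over CT (3.40, 1.49 to 8.73).

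Of 9 genes of mineralocorticoid action 5 were measured, and limma called none for TAC or genotype. Unadjusted p was under 0.05 for 2 for TAC (16.2% of all genes) and for 4 for genotype (7.77%). Nr3c2, the mineralocorticoid receptor, had 6 reads in the library labelled cKO TAC, 26 in CT TAC and, at baseline, 15 in cKO and 40 in CT. Its ratio of cKO to CT was 0.251 (0.0846 to 0.625) under TAC, and its ratio of TAC to baseline in cKO was 0.356 (0.113 to 0.970). Lcn2, which encodes lipocalin-2, had 70, 19, 80 and 38 reads in the same order and was 4.01-fold (2.39 to 7.06) and 3.47-fold (2.33 to 5.26) higher in cKO than in CT under TAC and at baseline. Lgals3, which encodes galectin-3, had 31, 4, 6 and 1 reads and was 8.44-fold (2.99 to 32.9) higher in the library labelled cKO TAC than in CT TAC. It was also 4.59-fold (1.89 to 13.5) higher in cKO TAC than in cKO baseline and 9.90-fold (1.20 to 455) higher in cKO than in CT at baseline. Hsd11b1, a glucocorticoid-activating reductase, passed in CT between TAC and baseline, with 13 reads against 41 (0.427, 0.210 to 0.813). Under TAC it was 2.26-fold (1.13 to 4.78) higher in the library labelled cKO than in CT. The remaining measured gene, Sgk1, with partly shared reads, had 293.5, 497.8, 138.3 and 440.2 reads in the same order. It was lower in cKO than in CT, without passing the 2-fold rule in either state. The ratio was 0.642 (0.553 to 0.742) under TAC and 0.519 (0.424 to 0.628) at baseline. Macrophages express Lgals3, and their markers (8 of 8 measured) summed to 784 CPM in the library labelled cKO TAC and 574 CPM in CT TAC, and to 906 CPM in cKO baseline and 380 CPM in CT baseline, and their part was not tested.

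Among genes of Gq coupling and receptor regulation, 30 of 32 symbols were measured and limma called 0 for TAC and 0 for genotype. Unadjusted p was under 0.05 for 5 for TAC (16.2% of all genes) and for 4 for genotype (7.77%). Rgs2, which shortens Gq signalling, had 23 reads in the library labelled cKO TAC, 16 in CT TAC and, at baseline, 32 in cKO and 74 in CT, and its ratio of TAC to baseline in CT was 0.291 (0.158 to 0.505). Arrb1, an arrestin that desensitises receptors, was 2.24-fold higher (1.32 to 3.89) in CT TAC than in CT baseline. In cKO, the calcium release channel gene Itpr3 was 2.61-fold higher (1.76 to 3.98) in the TAC library. Under TAC the G protein gene Gna12 had 210 reads in the library labelled cKO against 514 in CT (0.445, 0.377 to 0.524). At baseline Prkcd, whose reads were partly shared, Arrb2 and Arrb1 were 2.36-fold, 2.22-fold and 2.20-fold higher in cKO than in CT.

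Of 21 symbols of genes known to respond to angiotensin II or endothelin 20 were measured. With TAC 9 rose in limma at an adjusted p under 0.05 and none fell, where over all genes 1.3% rose and 0.524% fell. The list was drawn up with earlier results of these data known, and its genes respond to many other stimuli, so the count is a description. The fibroblast sums given above were higher in both TAC libraries, as Col1a1 and Col3a1 were. Under TAC the sum was higher in cKO than in CT, while Col1a1 (ratio 0.920, 0.849 to 0.996) and Col3a1 (0.916, 0.863 to 0.971) were lower. Single fibroblast markers went both ways in this pair. Mfap5 (2.15), Pi16 (1.35), Dcn (1.28) and Pdgfra (1.16) were higher, and Lum (0.893), Tcf21 (0.914), Dpt (0.797) and Ddr2 (0.850) lower. The intervals of Pdgfra, Lum, Tcf21, Dpt and Ddr2 included 1, and the median log2 ratio of the markers was 0.04. The part of fibroblasts was not tested. The 9 were Nppa, Nppb, Rcan1, Ctgf, Nox4, Col1a1, Col3a1, Fn1 and Postn. Nox4, an NADPH oxidase subunit with partly shared reads, rose by 2.69 (SE 0.48, limma adjusted p = 0.0207). It had 35 reads in the library labelled cKO TAC, 23 in CT TAC and, at baseline, 6.67 in cKO and 2 in CT. At so few baseline reads the size of its rise depends on the added read. Rcan1, an inhibitor and target of calcineurin, rose by 1.18 (SE 0.23, limma adjusted p = 0.0334). Fn1, which encodes fibronectin and also had partly shared reads, rose by 1.29 (SE 0.18, limma adjusted p = 0.00639). For genotype 1 of 20 was called, Ctgf, a matricellular protein gene and YAP target, at 1.83 (SE 0.19, limma adjusted p = 0.00913). TAC over baseline, 10 of 20 were higher and 1 (Ccl2) lower past 2-fold in cKO, and 11 were higher and none lower in CT. Over all genes, 3.69% were higher and 2.83% lower in cKO, and 6.05% and 4.67% in CT. The largest were Postn (3.32), Ccl2 (-2.42) and Nox4 (2.10) in cKO, as log2 ratios, and Postn (5.09), Nppa (4.79) and Acta1 (3.82) in CT. Ccl2 had 6 reads in the library labelled cKO TAC, 5 in CT TAC and, at baseline, 32 in cKO and 4 in CT. In cKO over CT, Acta1 (-1.69) and Ctgf (1.55) led under TAC, with 3 higher and 2 lower (2.93% and 2.09% of all genes). At baseline Nppa (3.97), Ccl2 (3.35) and Postn (2.50) led, with 10 higher and none lower (3.26% and 1.81% of all genes).

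By distance between log2 CPM profiles centred on their mean over the 4 libraries, the genes nearest to Ace were Nipsnap3b (0.07) and the intermediate filament gene Vim (0.13). Those nearest to Agt were the matrix protein gene Tgfbi (0.13) and the endothelial lectin gene Clec14a (0.13). Nearest to Ednra were Uqcr11 (0.04), a subunit of mitochondrial complex III, and Gdpd5 (0.08), and to Ece1 Sh3rf1 (0.03) and Mcm2 (0.06). The flat genes had many equally close profiles: 1027 genes lay within 0.25 of Agtr1a, nearest Tnpo3 and Mkrn2, and 690 of Ednrb, nearest Zfp335 and Fbxw2, against 22 of Ace and 26 of Agt. Ace and Agt were 0.66 apart, and 327 genes were nearer to Ace than Agt was. The distance rests on 4 libraries that share no replicate, so it ranks profiles only. It leaves out counting error, and Mcm2 (log2 CPM 1.99 to 2.81), Sh3rf1 (2.58 to 3.36) and Gdpd5 (2.70 to 3.87) had low levels. Their rank as nearest is therefore uncertain.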

How the data were processed

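RNA from 4 mouse hearts was sequenced, 1 library a group. Per the submitters' processing notes, edgeR, HISAT2, CASAVA and mm10 were used, with no versions or roles. For the counter, annotation and strand setting the labels give nothing. The authors deposited log2 CPM, a unit inferred from the values, which after exponentiation are multiples of a fixed step in each library with 1 scaled read added. Division by this step gave back reads, and 88.6% to 89.0% of values per library were whole (within 0.01). Log2 ratios are differences of the deposited values, and ratios and Clopper-Pearson 95% intervals use the recovered reads, rounded, over effective library sizes. The interval of a difference of log2 ratios is a normal approximation from read counts. Intervals take each read as an independent molecule, which PCR copies are not, and cover counting error alone. A gene passed when at least 2-fold apart with an interval excluding 1.

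Using limma 3.58.1 in R 4.3.3, a linear model of the deposited log2 values of all 12408 genes was fitted, moderated along a mean-variance trend, with terms for genotype and TAC and Benjamini-Hochberg adjustment at 0.05. It was tested on simulated data. Coordinates and exon lengths are from GENCODE M21 (mm10). Members, lists and tests were chosen with earlier results of these data known. All 6 genes were named, and from other lists the 3 largest passing ratios per pair, genes called by limma, and Edn1, Edn3 and Sgk1, chosen after their values were seen. Some genes that this rule would name are not reported here. The markers Pi16, Abcc9, Kcnj8, Pdgfrb, Rgs5 and Myh11 were also chosen after their values were seen. The accounts of single fibroblast and mural markers were added then too. Alternatives were other pseudocounts (none, 5 CPM), total-read scaling, a mean CPM of at least 5, no trend, and leaving out the other factor.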

Additional observations from a re-analysis of the deposited data

Results flagged for a closer look

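Ece1 and Ednra differed in direction between groups. For Ece1 the TAC log2 ratio was 0.42 in cKO and -0.50 in CT. In cKO over CT its log2 ratio was 0.78 under TAC and -0.14 at baseline, the latter within counting error. The log2 ratio of Ednra in cKO over CT was 0.40 under TAC and -0.72 at baseline. Agt (0.16 under TAC and -0.15 at baseline) and Agtr1a (-0.15 under TAC and 0.011 at baseline) also had opposite signs, with all 4 ratios within counting error. With 1 mouse a group these differences were not tested.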

How the results depend on the processing

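The 24 library ratios of the 6 genes stayed within their counting intervals under no added read, 5 added CPM and total-read scaling, and so did the number past 2-fold in each pair. The count of genes called for TAC was 1 of 6, became 2 (Ace and Agt) at a mean CPM of at least 5, and 0 without the trend and without the genotype term. Ace had limma adjusted p from 0.00650 to 0.339 over the alternatives and Agt from 0.0365 to 0.339. Agtr1a changed sign for genotype under total-read scaling (0.026, against -0.07), neither being called. Over all genes, TAC calls numbered 226, against 327 at a mean CPM of at least 5, 159 under total-read scaling, 98 with 5 added CPM, 20 without the genotype term and 0 without the trend. Genotype calls numbered 3, against 9 at a mean CPM of at least 5, 3 under total-read scaling, 2 with 5 added CPM and 0 without the trend or the TAC term. The cause was not tested. No paired analysis was possible because each group holds 1 library and the labels give no replicate numbers. Leaving out a library was not run, since the model then has no residual degrees of freedom. Depth limits Ednrb and Agt, with 24 and 30 reads in the shallowest library.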
